A study of Mus musculus with 16 samples.

Results

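Expression of 10 genes of the cytokine receptor and JAK/STAT5 pathway was examined in cultured mouse T-ALL (T-cell acute lymphoblastic leukaemia) lines and in derivatives of them that resist a drug. They are the receptor genes Il7r, Il2rg, Il2ra, Il2rb, Il4ra and Epor, the kinase genes Jak1 and Jak3 and the transcription factor genes Stat5a and Stat5b. They were taken by gene symbol from a table of 13474 genes, in which 10 of 10 have a row. Of these, 9 of 10 passed the filter of 1 FPKM in at least 2 libraries, and Il4ra did not.

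RNA was sequenced from 16 cultures, 1 library each. Lines 2883, 2696, 2641 and 2869 carry the genotype Mcm2cre/cre, a reduced-function allele of Mcm2, part of the helicase that unwinds DNA for replication. Line 7298 is SCL/LMO1 transgenic. The source tissue is the thymus for each library. Each line has a parental culture given PBS, 5 in all. The 11 resistant derivatives comprise 3 resistant to cytarabine (lines 7298, 2883 and 2869), 3 to vincristine (2883, 2696 and 2869), 2 to etoposide (2883 and 2696), 2 to prednisone (2883 and 2641) and 1 to methotrexate (2883). The derivatives of a line share 1 parental library. The labels do not say that cultures of a group were repeated, so each drug is represented by different lines rather than by repeats of 1 line.

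Interleukin receptors of this family have no kinase activity of their own. The shared chain encoded by Il2rg pairs with Il7r, with Il4ra, or with Il2ra and Il2rb to form the receptors for IL-7, IL-4 and IL-2, and binding of a cytokine activates JAK1, bound to the ligand-specific chain, and JAK3, bound to the shared chain. At the receptors for IL-7 and IL-2 the kinases phosphorylate STAT5A and STAT5B, which enter the nucleus and activate survival and proliferation genes. IL-7 signalling is required for early thymocyte development, Il2ra (CD25) marks an early thymocyte stage and activated T cells, and Epor, the erythropoietin receptor, signals through JAK2 and STAT5 in red cell precursors.

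The stretches upstream of the start sites of Il7r, Il2ra and Epor, 3 of the receptor genes described most fully below, are shown 5′ to 3′ in the direction of the gene. They are the 250 bases before the RefSeq start site on GRCm38.p6, and capitals mark matches to 6 motifs searched on both strands.
Il7r, chr15:9529877-9530126, minus strand: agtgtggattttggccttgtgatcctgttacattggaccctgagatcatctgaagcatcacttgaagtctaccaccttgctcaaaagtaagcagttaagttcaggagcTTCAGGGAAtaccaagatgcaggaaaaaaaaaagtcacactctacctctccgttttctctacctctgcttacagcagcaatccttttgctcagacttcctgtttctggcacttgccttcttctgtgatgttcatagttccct
Il2ra, chr2:11642542-11642791, plus strand: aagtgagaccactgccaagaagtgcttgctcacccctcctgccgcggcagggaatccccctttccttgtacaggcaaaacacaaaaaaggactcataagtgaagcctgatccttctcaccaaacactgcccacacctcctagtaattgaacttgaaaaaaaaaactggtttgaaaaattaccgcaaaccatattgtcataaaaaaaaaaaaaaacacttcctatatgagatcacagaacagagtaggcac
Epor, chr9:21963577-21963826, minus strand: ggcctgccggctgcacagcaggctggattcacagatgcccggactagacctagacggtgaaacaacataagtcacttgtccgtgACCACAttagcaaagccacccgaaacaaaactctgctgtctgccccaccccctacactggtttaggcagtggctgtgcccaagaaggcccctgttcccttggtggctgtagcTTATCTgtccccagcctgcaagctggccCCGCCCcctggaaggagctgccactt
The first motif searched was TTCNNNGAA, bound by STAT factors. Il7r had a match to it, TTCAGGGAA, 142 to 134 bases upstream on the plus strand of the gene, and no other of the 9 genes with an entry had one. Of 32817 promoters in RefSeq, 7.01% hold this motif in the same window. The second, bound by RUNX factors, was TGTGGT, which occurs in 14.0% of all promoters. Epor had it on the opposite strand 166 to 161 bases upstream, and Il2rg had it too. The GATA factor motif searched was AGATAA, with a match in 9.99% of all promoters. Epor had it on the opposite strand 54 to 49 bases upstream. For the SP and KLF factors the letters were GGGCGG, which 32.7% of all promoters hold. They were present in Epor, on the opposite strand 26 to 21 bases upstream, and in Il4ra, Jak1, Jak3, Stat5a and Stat5b. The motif of RBPJ, the factor activated by Notch, was searched as GTGGGAA (5.42% of all promoters) and was in no member. The FOXO factor motif was searched as TGTTTAC (3.16% of all promoters), again with no match in a member. Il2ra had a match to none of the 6, and no matches overlapped in a member. In all, 9 of 10 members matched an entry, and Il2rb did not. These matches describe the sequence only.

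The deposited FPKM (fragments per kilobase, scaled to sequencing depth) divides by the whole span of a gene, introns included, and is used below to compare 1 gene between libraries. To compare genes, reads scaled to sequencing depth alone (CPM) were divided by the exon length in kb (GENCODE vM21). On this scale Il2rg was the highest member, with a median of 54.4 CPM per kb over 16 libraries (36.4 to 96.8). Jak1 followed at 39.1 (26.8 to 86.3) and Stat5b at 35.0 (21.4 to 75.4). Il2rg was above Jak1 in 13 of 16 libraries and Jak1 above Stat5b in 10 of 16, so the order of these 3 was not the same in every library. On this scale Stat5b exceeded Stat5a, at a median of 18.5, in 16 of 16 libraries. The exon length joins the exons of all transcripts, 7133 bases for Stat5a, whose transcript with the longest coding sequence has 3605. For Stat5b these lengths are 5539 and 5062 bases. In CPM alone the etoposide derivative of 2883 held 201 of each, so the place of Stat5a among the members depends on the length used. Jak1 exceeded Jak3 in 16 of 16 libraries by 3.48 to 44.5 times. Il2ra had a median of 16.0 and reached 417 CPM per kb, and it was above Stat5a in 8 of 16 libraries. Il7r (median 7.74), Il2rb (4.82), Jak3 (4.13) and Epor (3.11) were low and overlapped each other. Il4ra, at a median of 0.209 and with under 20 reads in 8 of 16 libraries, was near the limit of detection.

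**Figure D1:**
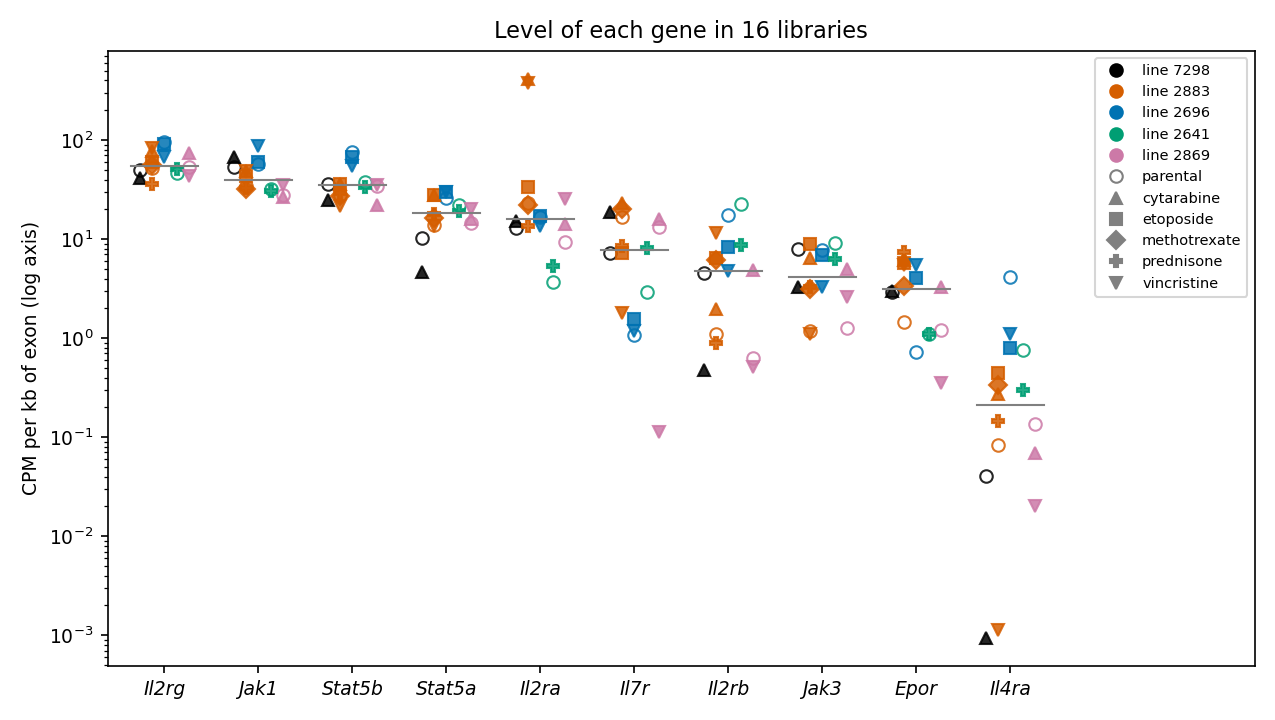
Level of the 10 genes in CPM per kb of exon on a log axis, 1 point per library (open circle parental, filled shapes resistant, colour by cell line), with a grey line at the median of the 16 libraries. Il2rg is highest by median at 54.4, the cytarabine and vincristine derivatives of line 2883 stand far above the rest for Il2ra, and Il4ra is lowest at 0.209.

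The cultures carried the RNA of T cells. Of 16 listed T cell markers 16 had a row, and their summed level was 5610 to 8520 CPM in parental and 4860 to 8870 CPM in resistant libraries. Cd3d had a median of 168 CPM per kb. Not every listed marker was high: Cd4 did not pass the filter (median 0.216 CPM per kb, lowest 0 reads), and Cd5 had a median of 0.452 CPM per kb. Of 5 NK cell markers 2 had a row, with summed levels of 0.0889 to 41.5 CPM in parental and 0.128 to 42.1 CPM in resistant libraries. The 3 libraries of line 2696 held 20.0 to 42.1 CPM of these, mostly Nkg7, and the other 13 at most 11.9 CPM. Of 6 B cell markers only Cd79b had a row, with a median of 0.270 and at most 9.22 CPM per kb. Of 7 myeloid markers only Itgam had one, with a median of 2.36 and at most 6.60 CPM per kb, a level like that of Epor. Depth, recovered from the steps of the low values, was 12142000 to 13498000 reads in parental and 14066000 to 18956000 in resistant libraries, so depth and resistance cannot be told apart. In a bulk culture, fewer cells that express a gene and less RNA per cell cannot be told apart either.

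Each derivative was set beside the parental library of its line as a ratio of CPM. A gene counted as past the fold at a ratio of at least 2 or at most 0.5, and 95% intervals are exact (Clopper-Pearson) on the recovered reads and cover counting error only, with no test between conditions. Per derivative, 2 to 5 of the 9 filtered members were past the fold. In line 7298 the cytarabine derivative had 4 (Il7r higher, and Il2rb, Jak3 and Stat5a lower), against 8.05% of all 9309 filtered genes. In line 2883 the cytarabine derivative had 4 (Il2ra, Jak3, Stat5a and Epor higher, background 13.6%). The etoposide derivative of 2883 had 5 (Il2rb, Jak3, Stat5a and Epor higher, Il7r lower, background 17.0%). The methotrexate derivative had 3 (Il2rb, Jak3 and Epor higher, background 10.3%) and the prednisone derivative of 2883 had 3 (Jak3 and Epor higher, Il7r lower, background 9.94%). The vincristine derivative of 2883 had 4 (Il2ra, Il2rb and Epor higher, Il7r lower, background 13.1%).

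In the other lines the counts were smaller or alike. The cytarabine derivative of 2869 had 3 members past the fold (Il2rb, Jak3 and Epor higher, background 11.3%) and the vincristine derivative of 2869 had 4 (Il2ra and Jak3 higher, Il7r and Epor lower, background 13.1%). In line 2696 the etoposide derivative had 2 (Epor higher, Il2rb lower, background 7.56%) and the vincristine derivative had 3 (Epor higher, Il2rb and Jak3 lower, background 13.1%). The prednisone derivative of 2641 had 2 (Il7r higher, Il2rb lower, background 9.80%). The members' share was above the background in 11 of 11 derivatives, at 22.2% to 55.6% of 9 genes. The members were chosen with earlier results of these data known, so this share is a description and not a test of the pathway. Il2rb, Jak3 and Epor, often past the fold, had as few as 36, 76 and 12 reads in a library. Where several derivatives are set beside 1 parental library, their counts are not independent observations. Il2rg, Jak1 and Stat5b were past the fold in no derivative.

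**Figure D2:**
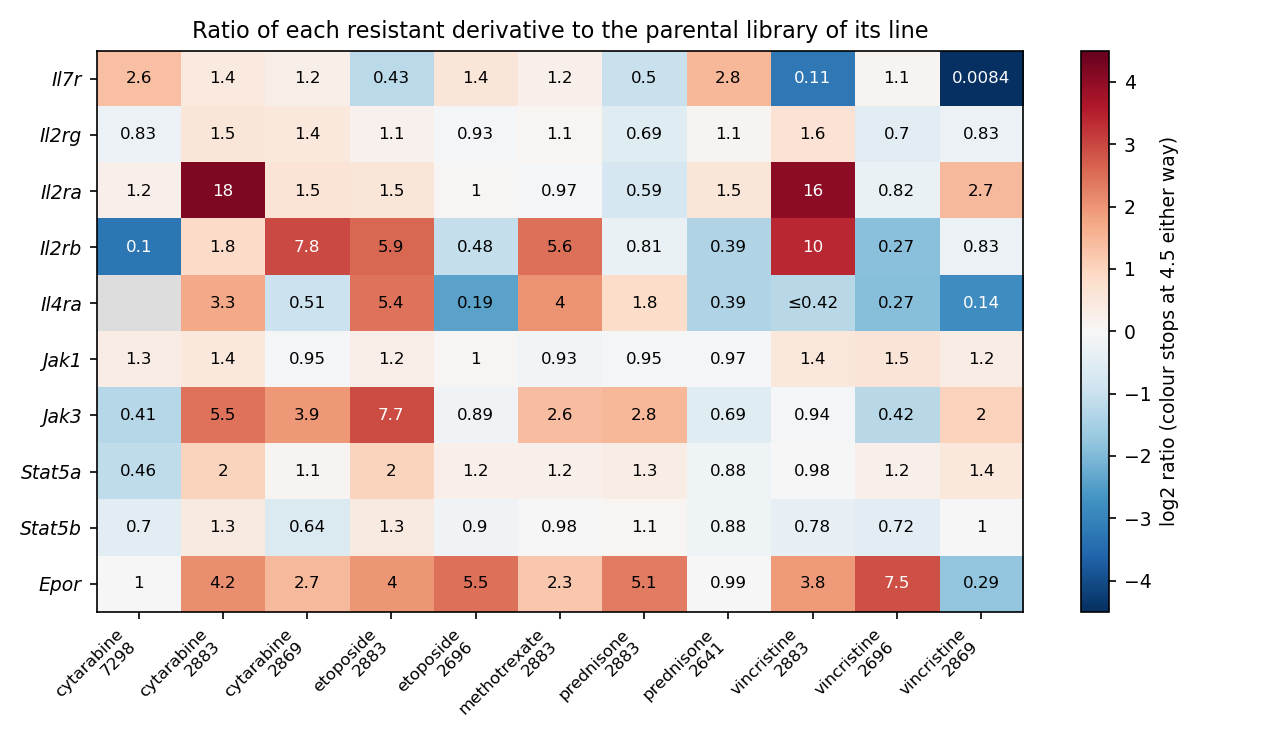
Ratio of CPM in each of the 11 resistant derivatives to the parental library of its line for the 10 genes, printed in each cell and coloured on a log2 scale (red higher, blue lower, grey where both libraries were at or under 3 reads). Epor is red in 8 columns, Il2ra reaches 18 and 16 in 2 columns of line 2883, and Il2rg, Jak1 and Stat5b stay pale throughout.

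Il2ra, the alpha chain that gives the IL-2 receptor its high affinity (chromosome 2, 11642807 to 11693193, plus strand, mm10), was high in 2 derivatives of line 2883. It was at 47.3 FPKM in the cytarabine and 42.3 FPKM in the vincristine derivative, beside 2.59 FPKM in their parental library. The etoposide, methotrexate and prednisone derivatives of the same line were at 3.79, 2.5 and 1.53 FPKM. In the 14 libraries other than the 2 high ones, Il2ra lay between 0.418 and 3.79 FPKM, with no overlap with them.

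The parental library of 2883 held 1586 Il2ra reads and the cytarabine derivative 40929, a ratio of 18.2 (95% interval 17.3 to 19.2). The vincristine derivative held 31114 reads, a ratio of 16.3 (15.5 to 17.2). By ratio, Il2ra ranked 79 of 9309 genes from the top in the former and 61 in the latter. The same drugs did not give this in the other lines. In line 2869 the parental library was at 1.06 FPKM, the cytarabine derivative at 1.61 and the vincristine derivative at 2.89, a ratio of 2.73 (2.51 to 2.97) in the last. In line 7298 Il2ra went from 1.48 to 1.74 FPKM with cytarabine, and in line 2696 from 1.88 to 1.96 with etoposide and 1.54 with vincristine. In line 2641, the lowest line, it was 0.418 FPKM in the parental and 0.613 in the prednisone derivative.

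Il15ra, the alpha chain of the IL-15 receptor, lies next to Il2ra on the same strand (chromosome 2, 11705290 to 11734317), with 12096 bases between them. It was singled out after its values were seen, as were the other neighbours below. In the 2 derivatives with high Il2ra, Il15ra was lower than in the parental library (1.16 FPKM): 0.233 FPKM in the cytarabine derivative, a ratio of 0.201 (0.162 to 0.248), and 0.189 FPKM in the vincristine derivative, a ratio of 0.163 (0.127 to 0.208). It was also low in the methotrexate derivative (0.326 FPKM, ratio 0.282), where Il2ra was not high, and was at 1.12 and 1.44 FPKM with etoposide and prednisone. Other neighbours stayed between 0.528 and 1.25 of the parental level in those 2 derivatives, namely Rbm17 (0.583 and 0.770), Pfkfb3 (1.07 and 0.528) and Fbh1 (1.25 and 1.24). Gm37881, an unverified transcript that lies over Il2ra on the same strand, had 51 and 12 reads, so few of the reads were assigned to it.

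Markers of other cells were read in the same libraries. Of 7 stromal and epithelial markers 2 had a row, Pdgfra and Pdgfrb, and their summed level was 11.7 CPM in the parental library of 2883, 215 in the cytarabine and 441 in the vincristine derivative. In the other 3 derivatives of 2883 it was 4.85 to 40.4 CPM, over the 5 parental libraries 0.729 to 300 CPM and over the 11 resistant ones 0.186 to 441 CPM. Pdgfra was at most 0.17 FPKM in any library, and Col1a1, Col1a2, Epcam, Foxn1 and Krt5 have no row. Of 4 regulatory T cell markers 3 had a row (Foxp3 has none), with summed levels of 70.3 CPM in the parental library, 107 in the cytarabine and 53.2 in the vincristine derivative, within 56.9 to 359 CPM over parental and 7.94 to 225 CPM over resistant libraries. Their part in the level of Il2ra was not tested.

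**Figure D3:**
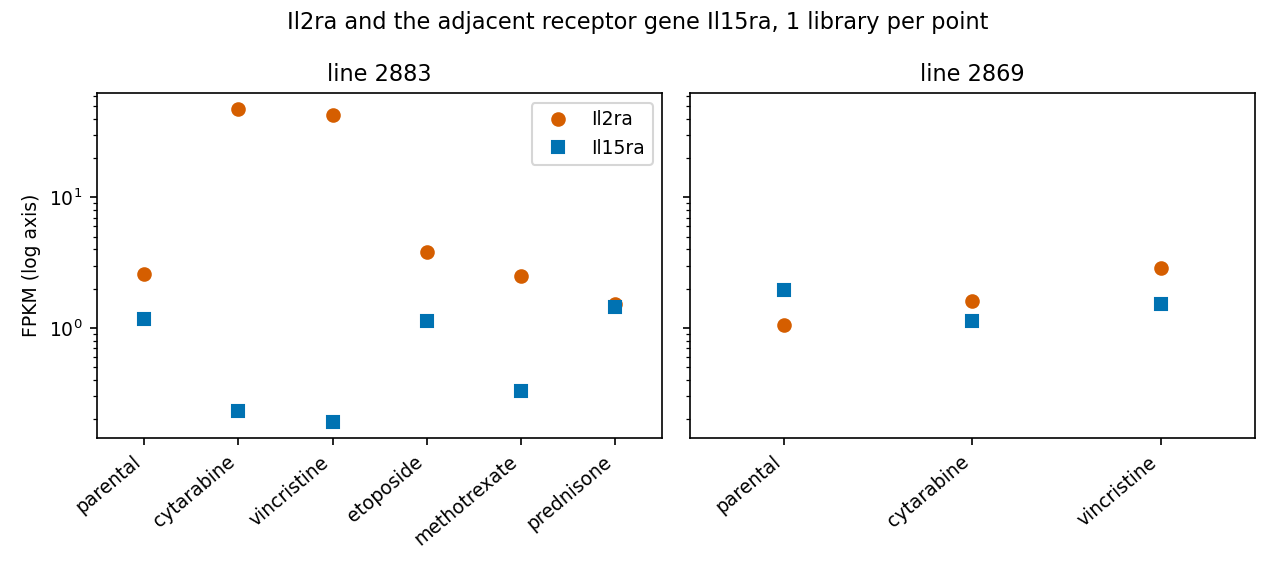
Level of Il2ra and the adjacent Il15ra in FPKM on a log axis, 1 point per library, in lines 2883 and 2869. In line 2883 Il2ra stands at 47.3 and 42.3 in the cytarabine and vincristine derivatives, where Il15ra stands at 0.233 and 0.189, and no such separation is seen in line 2869.

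Over the 16 libraries the genes whose log2(FPKM + 1) followed Il2ra most closely were Slamf9 (Pearson r = 0.914), Dpysl5 (0.887) and Kat2b-ps (0.856). On deviations from the mean of each line they were Pmepa1 (0.943), Sgpl1 (0.930) and Slamf9 (0.917). These correlations rest on the 2 high libraries of 1 line and on libraries that share parental cultures, and they are given as a description.

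Il7r, the ligand-specific chain of the IL-7 receptor (chromosome 15, 9505788 to 9530176, minus strand), was far below its parental level in 2 of the 3 vincristine derivatives. In the parental libraries it was at 3.24 FPKM in line 2883, 2.56 in 2869, 1.39 in 7298, 0.556 in 2641 and 0.207 in 2696. Line 2696 was low in all of its 3 libraries (0.207 to 0.299 FPKM). With vincristine, Il7r went from 3.24 to 0.346 FPKM in line 2883 and from 2.56 to 0.0217 FPKM in line 2869, and it stayed low in line 2696 (0.207 in the parental and 0.225 FPKM in the derivative).

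In reads, the vincristine derivative of 2869 held 9 against 843 in its parental library, a ratio of 0.00838 (95% interval 0.00382 to 0.016), which ranked 54 of 9309 genes from the bottom. That of 2883 held 123 against 959, a ratio of 0.107 (0.0877 to 0.129). In the 3 cytarabine derivatives Il7r was above the parental level instead, at 3.58 FPKM in line 7298 (2.58 of the parental level, 2.31 to 2.87), 4.39 in line 2883 (1.36, 1.25 to 1.47) and 3.04 in line 2869 (1.19, 1.09 to 1.30). Prednisone gave 1.61 FPKM in line 2883 (0.498 of the parental level) and 1.56 FPKM in line 2641 (2.81 of it), in opposite directions. Etoposide gave 1.40 FPKM in line 2883 (0.432) and 0.299 FPKM in line 2696 (1.45), and methotrexate 3.82 FPKM (1.18).

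With limma the log2 fold change of Il7r, on the log2(FPKM + 1) scale, was 0.77 ± 0.32 (SE) for cytarabine (n = 3 derivatives, limma adjusted p = 0.436) and -1.01 ± 0.32 for vincristine (n = 3, limma adjusted p = 0.245), neither called. The difference between the 2 drugs was 1.77 ± 0.36 (limma adjusted p = 0.356). It was the smallest adjusted p of a member among the 6 pairwise differences between drugs, in which no member was called. Over all genes limma called 1 in the vincristine minus prednisone difference and 0 in the other 5. The vincristine estimate of Il7r was -2.22 with a pseudocount of 0.1 FPKM and -2.58 on log2(CPM + 1), and over 21 alternatives its adjusted p ranged from 0.222 to 0.569. The genes whose levels followed Il7r most closely over the 16 libraries were Zfp770 (r = 0.838), H2-T10 (0.833) and Wapl (0.783), and on deviations from the line mean H2-T10 (0.872), Oat (0.828) and Zfp770 (0.827).

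Il2rg, the shared gamma chain (chromosome X, 101264378 to 101268255, minus strand), was past the fold in no derivative. It was at 28.9 FPKM in the lowest parental library, 32.4 in the median and 59.6 in the highest (line 2696), and at 22.4, 36.7 and 55.6 FPKM in the lowest, median and highest resistant library. The 2 groups overlapped. The ratios to the parental library ran from 0.690 (prednisone, 2883) to 1.58 (vincristine, 2883), with 6 of 11 above 1. The predicted gene Gm20489 overlaps it on the same strand.

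Il2rb, the beta chain of the IL-2 and IL-15 receptors (chromosome 15, 78479256 to 78495271, minus strand), varied in both directions. The parental libraries lay far apart, at 5.99 FPKM in line 2641, 4.70 in 2696, 1.22 in 7298, 0.294 in 2883 and 0.167 in 2869. It was past the fold upward in 4 derivatives and downward in 4. Among lines that were low in the parental state, it was at 3.05 FPKM with vincristine in 2883 (10.4 of the parental level, 95% interval 7.93 to 13.9), 1.74 with etoposide (5.93), 1.64 with methotrexate (5.59) and 1.29 with cytarabine in 2869 (7.77). Among lines that were high in the parental state, it was at 0.128 FPKM with cytarabine in 7298 (0.104 of the parental level, 0.0715 to 0.149), 1.28 with vincristine in 2696 (0.273), 2.34 with prednisone in 2641 (0.391) and 2.24 with etoposide in 2696 (0.477). A ratio and the parental level in its denominator are not independent. The vincristine derivative of 2883 was thus high in the alpha and beta chains together, whereas the cytarabine derivative of 2883, with the highest Il2ra, was at 0.531 FPKM of Il2rb (1.81, 1.32 to 2.5).

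Il4ra, the ligand-binding chain for IL-4 (chromosome 7, 125552120 to 125579474, plus strand), was below the filter. It was highest in the parental library of 2696 (0.906 FPKM, 325 reads), which fell outside the other 4 parental libraries (0.00898 to 0.168 FPKM). The etoposide and vincristine derivatives of 2696 held 81 and 110 reads, ratios of 0.190 (0.147 to 0.244) and 0.268 (0.214 to 0.334). In line 2641 it went from 61 to 34 reads with prednisone. In the libraries of the other 3 lines it had at most 38 reads. Gm44876 overlaps it on the opposite strand, and the strand setting of the counting is not given in the sources used here. The closest genes to Il4ra over the 16 libraries were Igfbp4 (r = 0.959), Cd52 (0.922) and Tmem86a (0.920), and on deviations from the line mean Igfbp4 (0.971) and Tmem86a (0.881). These correlations rest mainly on the parental library of 2696, since Il4ra was at most 0.243 FPKM in any other library. They are given as a description.

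Epor (chromosome 9, 21958897 to 21963506, minus strand) was at least 2 times its parental level in more derivatives than any other member, 8 of 11. The parental libraries were at 1.27 FPKM in line 7298, 0.627 in 2883, 0.516 in 2869, 0.475 in 2641 and 0.316 in 2696. All 5 derivatives of line 2883 were higher: 3.17 FPKM with prednisone, 2.64 with cytarabine, 2.48 with etoposide, 2.38 with vincristine and 1.45 with methotrexate. Both derivatives of 2696 were higher as well, at 2.36 FPKM with vincristine and 1.74 with etoposide.

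In line 2869 the directions parted, with 1.41 FPKM in the cytarabine and 0.153 in the vincristine derivative. In lines 7298 and 2641 the derivatives were at 1.28 and 0.470 FPKM, close to their parental libraries. The 8 ratios of at least 2 ran from 2.32 (95% interval 1.56 to 3.52, methotrexate in 2883) to 7.50 (4.66 to 12.7, vincristine in 2696), and 0.294 (0.138 to 0.587) in the vincristine derivative of 2869. These ratios rest on 12 to 251 reads per library. The 5 derivatives of 2883 share a parental library with 35 reads, and both derivatives of 2696 share one with 19. The share of all genes with as many ratios of at least 2 was not computed.

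The limma log2 fold change of Epor over the 11 derivatives was 0.56 ± 0.22 (SE, n = 11), with an adjusted p = 0.472, so it was not called. It was the only member with an unadjusted p under 0.05 in that comparison. Over 21 alternatives its adjusted p ranged from 0.321 to 0.899. Of 9 erythroid markers 2 had a row, Gata1 and Tfrc, with summed levels of 299 to 936 CPM in parental and 309 to 853 CPM in resistant libraries. Nearly all of this was Tfrc, the transferrin receptor of dividing cells, at 12.4 to 39.2 FPKM. Gata1, the transcription factor of red cell precursors, reached 2.67 CPM per kb, and the globin genes, Klf1 and Alas2 have no row. In line 2883 Gata1 was at 3 reads in the parental library, 112 in the cytarabine and 60 in the vincristine derivative, where Epor and Il2ra were also high, and at 9, 14 and 1 with etoposide, methotrexate and prednisone, where Epor was high too. In line 2696 it was at 49 reads in the parental library, 100 with etoposide and 54 with vincristine. Its part in the level of Epor was not tested. The genes whose levels followed Epor most closely were Tbc1d20 (r = 0.882), Map3k10 (0.875) and Tent2 (0.842), and on deviations from the line mean Elk1 (0.917), Tbc1d20 (0.866) and Pdzd4 (0.858).

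**Figure D4:**
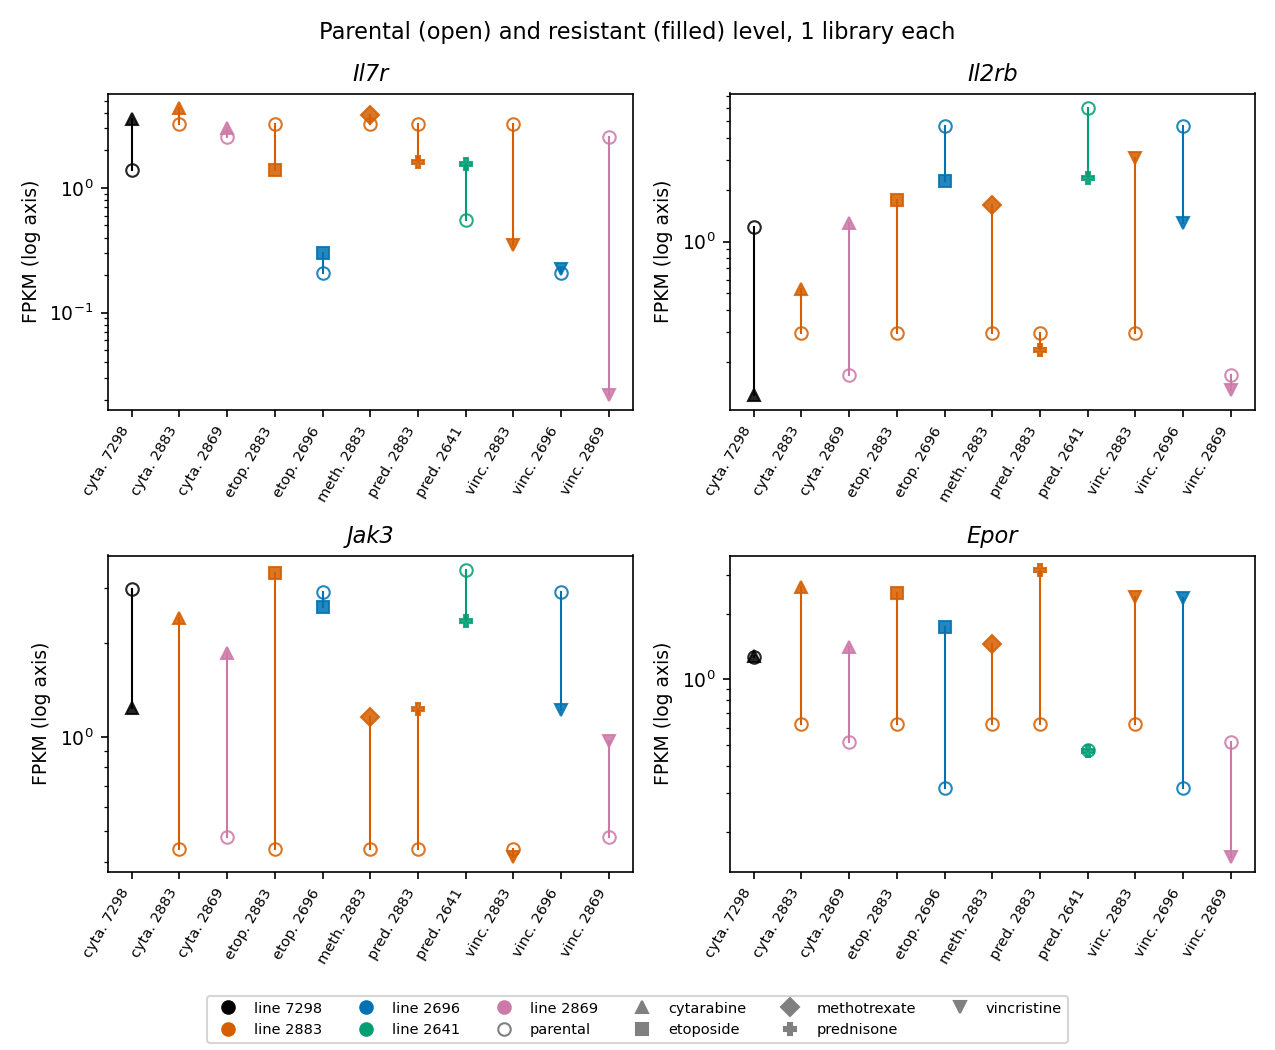
Level of Il7r, Il2rb, Jak3 and Epor in FPKM on a log axis for each of the 11 derivatives (filled) and the parental library of its line (open), joined by a line and coloured by cell line. Il7r drops from 2.56 to 0.0217 in the vincristine derivative of 2869, Il2rb and Jak3 move both ways, and Epor is at least 2 times its parental level in 8 of 11 pairs.

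Jak1, the kinase on the ligand-specific chains (chromosome 4, 101152367 to 101265282, minus strand), differed more between lines than between states. Line 2696, with 3 libraries, held 3.69 to 5.53 FPKM, and line 7298 held 3.41 and 4.30 FPKM. The 6 libraries of 2883 held 2.05 to 3.14 FPKM, those of 2641 1.98 and 2.04, and those of 2869 1.71 to 2.25. Lines 2696 and 7298 did not overlap the other 3 lines. Ratios to the parental library were 0.926 to 1.5. The 3 vincristine derivatives were each above their parental library, at 1.42 (1.35 to 1.48) in 2883, 1.5 (1.45 to 1.55) in 2696 and 1.25 (1.20 to 1.32) in 2869. Ratios of like size were seen with cytarabine in 2883 (1.39) and 7298 (1.26) and with etoposide in 2883 (1.24). The remaining derivatives were at 0.926 to 1.03. The limma log2 fold change for vincristine was 0.37 ± 0.11 (SE, n = 3) with an adjusted p = 0.223, not called. Raver2 overlaps Jak1 on the opposite strand.

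Jak3, the kinase on the shared chain (chromosome 8, 71676296 to 71690575, plus strand), fell into low and high parental libraries. It was at 3.43 FPKM in line 2641, 2.98 in 7298 and 2.92 in 2696, and at 0.478 in 2869 and 0.439 in 2883. Within line 2883 it was at 3.36 FPKM with etoposide, 2.40 with cytarabine, 1.23 with prednisone, 1.16 with methotrexate and 0.413 with vincristine. In 2869 it was at 1.86 FPKM with cytarabine and 0.969 with vincristine. These 2 lines gave the 6 ratios of at least 2, from 2.03 (1.59 to 2.61) to 7.66 (6.04 to 9.85). Those ratios rest on 2 shared parental libraries, with 76 reads in 2883 and 92 in 2869.

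In the lines with high parental Jak3 no derivative was above its parental library. As for Il2rb, the ratio is not independent of the parental level by which the lines are sorted here. It was at 1.24 FPKM in the cytarabine derivative of 7298, a ratio of 0.415 (0.359 to 0.478), and at 1.22 in the vincristine derivative of 2696, a ratio of 0.416 (0.359 to 0.481). The etoposide derivative of 2696 was at 2.61 and the prednisone derivative of 2641 at 2.36 FPKM. Insl3 overlaps Jak3 on the same strand.

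Stat5a and Stat5b are adjacent on chromosome 11 and are transcribed away from each other, Stat5b at 100780731 to 100850724 (minus strand) and Stat5a at 100859351 to 100885169 (plus strand), 8626 bases apart. Their coding sequences aligned with 84.7% identity and shared an unbroken run of 324 bases, and 25.9% of the 50-base windows of the Stat5a coding sequence occurred in that of Stat5b, so part of their reads could be assigned to either. Stat5a also overlaps Stat3 by 72 bases at their 3′ ends, on opposite strands.

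Stat5a was highest in line 2696 (7.14, 8.26 and 8.33 FPKM) and lowest in 7298, at 2.82 FPKM in the parental and 1.28 in the cytarabine derivative, a ratio of 0.456 (0.410 to 0.506). In line 2883 the cytarabine and etoposide derivatives stood apart at 7.72 and 7.80 FPKM (ratios 2.0 and 2.02), against 3.86 in the parental library and 3.79 to 4.92 in the other 3 derivatives. In line 2641 it was at 6.07 and 5.32 FPKM and in 2869 at 4.01 to 5.57.

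Stat5b was at 5.97 FPKM in the parental, 5.36 in the etoposide and 4.32 in the vincristine library of line 2696. The other 13 libraries lay between 1.70 and 2.98 FPKM, with no overlap. Its ratios ran from 0.639 (cytarabine, 2869) to 1.32 (cytarabine, 2883), so no derivative was past the fold.

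**Figure D5:**
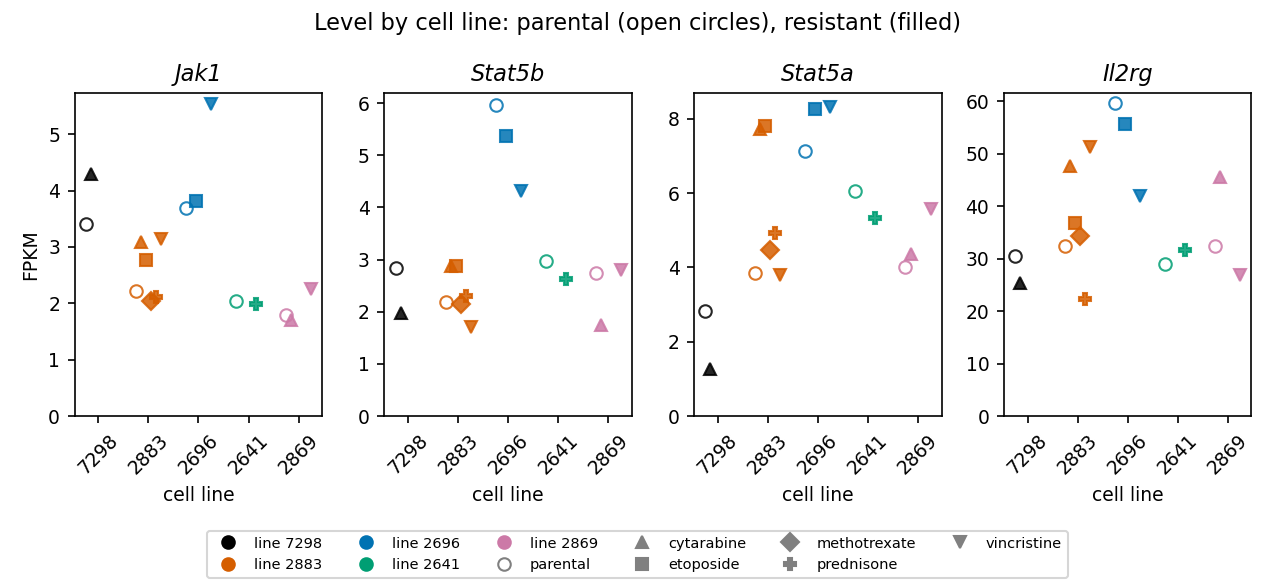
Level of Jak1, Stat5b, Stat5a and Il2rg in FPKM by cell line, 1 point per library (open circles parental, filled shapes resistant). The 3 libraries of line 2696 lie above 4 for Stat5b and the other 13 below 3, and the libraries of lines 2696 and 7298 are the highest for Jak1.

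No member was called by limma in any comparison of resistant with parental cultures. With all 11 derivatives against the 5 parental libraries, 0 of 9 members and 0 of 9309 genes (0%) passed an adjusted p of 0.05, and 1 member (Epor) and 907 genes (9.74%) had an unadjusted p under 0.05. For cytarabine 0 genes (0%) were called, and 1 member (Il7r) was among the 1037 (11.1%) with an unadjusted p under 0.05. For vincristine 0 genes (0%) were called, and 2 members (Jak1 and Il7r) were among 1289 (13.8%). For etoposide 0 genes (0%) were called, and no member was among 827 (8.88%). For prednisone 2 genes (0.0215%) were called, and no member was among 853 (9.16%). On log2(CPM + 1), limma also called 0 members in each of the 5 comparisons. The estimates of the other members ran from -0.24 to 0.55 for all derivatives, with adjusted p of at least 0.636. For cytarabine and vincristine the largest estimate was that of Il2ra, at 1.44 ± 0.75 (limma adjusted p = 0.485, 0.336 to 0.951 over 21 alternatives, in which the estimate ran from 0.43 to 2.0) and 1.42 ± 0.75 (limma adjusted p = 0.425, 0.339 to 0.743, estimate 0.64 to 2.24). Their values by library are given above, and 1 derivative of line 2883 in each was high.

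Between the 5 cell lines limma called 2 of 9 members, Jak1 (adjusted p = 0.0048) and Stat5b (adjusted p = 0.0391), against 1905 of 9309 genes (20.5%). Their values by line are those given above. An unadjusted p under 0.05 was reached by 4 members, these 2 with Il2ra and Stat5a, and by 3496 genes (37.6%). Jak1 was past the threshold in 20 of 20 alternatives (adjusted p 0.00168 to 0.0198) and Stat5b in 6 of 20 (0.0147 to 0.164, the highest without the parental library of 2696). The cultures of a line are not independent samples of it, so the test compares these lines with the spread left within them.

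The rest of the pathway was read from lists of ligands, receptor chains, kinases and STATs, inhibitors and STAT5 targets. Limma called none of their filtered genes in the resistant, cytarabine, vincristine, etoposide or prednisone comparisons. Of 16 ligand genes 2 had a row, Osm (oncostatin M) and Lif, and IL-7, IL-2, IL-4, IL-15 and erythropoietin are among those without one. Osm differed between lines (adjusted p = 0.0124), being lowest in line 7298 (0.0361 and 0.0749 FPKM), while the other 14 libraries held 0.839 to 4.25 FPKM.

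Of 28 other receptor chains 19 had a row and 13 passed the filter. Over all derivatives 5 of 13 were above and 8 below the parental level, with a median log2 fold change of -0.12 beside -0.0042 over all genes tested. For cytarabine 6 of 13 were above (median -0.01, all genes 0.016) and for vincristine 1 of 13 (-0.07, all genes -0.016). For etoposide 9 of 13 were above (0.08, all genes -0.027) and for prednisone 3 of 13 (-0.14, all genes 0.0018). Between lines 6 of 13 were called, against 20.5% of all genes, namely Crlf2, the TSLP receptor that pairs with Il7r (adjusted p = 0.00876), the IL-12 receptor chains Il12rb1 and Il12rb2, Il27ra, and the interferon receptor chains Ifnar1 and Ifngr2. Crlf2 was highest in line 2696, at 2.56 FPKM in the parental, 2.45 in the etoposide and 2.96 in the vincristine library. In the other 13 libraries Crlf2 was at 0.198 to 1.68 FPKM.

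Of the 7 other JAK and STAT genes 6 passed the filter. Among those called between lines, Jak2, the kinase of the erythropoietin receptor, was highest in line 2696 (3.40, 3.10 and 1.51 FPKM), and the other 13 libraries held 0.754 to 1.36 (adjusted p = 0.0269).

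Of 22 inhibitors and phosphatases 16 passed the filter and 4 of 16 were called between lines, a share near the 20.5% of all genes. Socs3, a feedback inhibitor of JAKs, was lowest in line 7298 (0.002 and 0.0157 FPKM). It was at 25.5 FPKM in the parental library of 2883 and at 11.8 in that of 2641 (adjusted p = 0.000273). Dusp6, a phosphatase of the MAP kinase ERK, was at 4.01 to 6.67 FPKM in line 2696 and at most 1.24 in the other 13 libraries (adjusted p = 0.00063). Ptpn6 (SHP-1) and Socs4 were the others called. Cish has no row. Socs2, below the filter and named after its values were seen, held 174 reads in the parental library of 2883, 143 in the etoposide derivative and 7 to 21 in the other 4 derivatives of that line.

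Of 20 known STAT5 target genes 17 had a row and 12 passed the filter, and the list holds Il2ra itself. Between lines 4 of 12 were called (Gimap5, Osm, Socs3 and Pim2), against 20.5% of all genes. Over all derivatives 5 of 12 were above and 7 below the parental level, with a median of -0.11 beside -0.0042 over all genes tested. Within line 2883, Cdkn1a, a cell cycle inhibitor, was below the parental level in all 5 derivatives (213 reads in the parental library, 8 to 71 in the derivatives), whether Il2ra was high or not. Gimap5 was above it in all 5, from 2 reads to 11 to 144. Socs3 was past the fold downward with cytarabine (0.357), etoposide (0.295) and methotrexate (0.302). Ccnd3 was so with methotrexate (0.410) and vincristine (0.375). Id2, a transcriptional inhibitor, was past the fold downward with cytarabine (0.474, 0.423 to 0.530) and vincristine (0.199, 0.169 to 0.234). In the other 3 derivatives of 2883 it was at 0.802 to 1.26. Low Id2 was not particular to the cultures with high Il2ra. Outside line 2883 it was at 0.242 with vincristine in 2696, 0.319 with cytarabine in 2869 and 0.410 with prednisone in 2641. The remaining ratios of Id2 were 0.525 (cytarabine, 7298), 0.536 (etoposide, 2696) and 0.992 (vincristine, 2869). In the cytarabine derivative of 2883, 5 of the 12 filtered targets were past the fold, Il2ra included, against 13.6% of all genes. In the vincristine derivative of 2883 it was 5 of 12, against 13.1%. With etoposide 4 of 12 were (17.0%), with methotrexate 4 of 12 (10.3%) and with prednisone 2 of 12 (9.94%). Cdkn1a, Ccnd3 and Id2 were named after their values were seen. Bcl2, the survival gene (below the filter, named after its values were seen), went from 20 reads in the parental library of 2883 to 277 with cytarabine, 394 with etoposide and 444 with prednisone, and to 47 with vincristine and 20 with methotrexate. The 2 derivatives with high Il2ra thus differed in Bcl2, with ratios of 9.78 (6.21 to 16.3) and 1.95 (1.14 to 3.48).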

How the data were processed

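The 16 libraries were made from total RNA (RNeasy kit) with the Illumina Stranded mRNA Prep kit, per the labels' protocols. The authors deposited FPKM values for 13474 genes, with trimming, alignment and counting by cutadapt, STAR and Partek on mm10, per the submitters' processing notes; annotation, versions and strand setting: not given in the sources used here. Tested on the values, the deposited FPKM use the whole gene span as length and include 0.1 read added to each gene. CPM (FPKM times length) and reads (CPM times the depth implied by the low values) were computed from them; 70.5% to 75.7% of values lay within 0.05 of a whole read, too few for a count model, so ratios have 95% Clopper-Pearson intervals only. Where 1 library had 0 reads, a ratio was computed against a floor of 3 reads.

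Tests used limma 3.58.1 (R 4.3.3; lmFit, eBayes with trend) on log2(FPKM + 1). A gene was kept where 2 or more libraries reached 1 FPKM (9309 genes). The fits had terms for cell line and drug (6 residual degrees of freedom) or for cell line and resistance (10), two-sided, with Benjamini-Hochberg adjustment over all 9309 genes and a threshold of 0.05. Methotrexate, with 1 library, was given by ratio only. The script was tested on simulated data. Derivative and parental culture were paired through the line named in their labels. As a check, each of the 11 derivatives correlated best with its own parental library (r = 0.94 to 0.98 across genes). P-values measure the spread between these cultures, which the labels do not describe as repeats.

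Coordinates are those of mm10 genes in GENCODE vM21, promoters are from RefSeq (GRCm38.p6), and figures were drawn with matplotlib 3.10.9. The members and the lists were chosen with earlier results of these data known. Named genes are the 10 members; fold changes in drug comparisons are printed for members with an unadjusted p under 0.05 and, beside them, for Il2ra; from each list, genes called in a comparison are named, and other genes are marked as named after their values were seen. For 4 receptor genes the most alike genes by Pearson correlation are given, up to 3 each. Some listed or correlated genes are not reported here. Tried as alternatives were log2(CPM + 1), median-of-ratios scaling, a pseudocount of 0.1, testing all genes, dropping the terms for line, and leaving out each library.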

Additional observations from a re-analysis of the deposited data

Results flagged for a closer look

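Among the 5 parental libraries, that of line 2696 stood apart from the other 4 for 3 of the 10 genes, by a gap to the nearest library that exceeded Dixon's 95% critical value for 5 samples (0.710). Il2rg was at 59.6 FPKM there and at 28.9 to 32.5 FPKM in the others. Stat5b was at 5.97 FPKM there and at 2.19 to 2.98 FPKM in the others. Il4ra was at 0.906 FPKM there and at 0.00898 to 0.168 FPKM in the others. Chance flags about 1 in 20 groups where the values are normally distributed. The rule was applied to FPKM without taking logs. On logs of the values printed here, the gap stays past the critical value for Il2rg and falls short of it for Stat5b and Il4ra. The 3 flags come from 1 library. The share of all genes flagged in the same way was not computed, so their number is not a result about the members. Of the 2 NK cell markers with a row, Nkg7 was also high there, at 35.2 FPKM against 0.00639 to 2.09 FPKM in the other 4 parental libraries. Eomes went the other way, with 0 reads there and its highest level in the parental library of 2641 (0.998 FPKM). Summed, the 2 markers were at 41.5 CPM there against 0.0889 to 7.91 CPM, and their part in the levels of the 3 genes was not tested. The 2 resistant derivatives of line 2696 were also the highest resistant libraries for Stat5b (5.36 and 4.32 FPKM) and for Il4ra (0.173 and 0.243 FPKM). For Il2rg the etoposide derivative was the highest (55.6 FPKM). The vincristine derivative (41.9 FPKM) was below the vincristine (51.2) and cytarabine (47.7) derivatives of 2883 and the cytarabine derivative of 2869 (45.5).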

How the results depend on the processing

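No member was called in the resistant, cytarabine, vincristine, etoposide or prednisone comparisons under any of the 21 alternatives. Counts over all genes moved from small bases. The resistant comparison gave 1 call with median-of-ratios scaling and 0 to 2 when a library was left out (2 without either library of 7298). Without the replicate block (no line terms, so unpaired) vincristine gave 3 calls and prednisone 0. Prednisone gave 1 call without the filter and 0 on log2(CPM + 1). Leaving out 1 library gave 0 to 9 calls for vincristine (9 without the parental library of 2696), 0 to 5 for etoposide (5 without the etoposide derivative of 2696) and 0 to 4 for prednisone (4 without the cytarabine derivative of 2869).

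Between lines, 3490 genes were called on log2(CPM + 1), and 1263 to 1900 with 1 library left out (1263 without the parental library of 2869). Of the members, 1 was called with a pseudocount of 0.1 and 1 without the filter, and 1 to 2 with a library left out; Jak1 was called throughout. On log2(CPM + 1) 3 were called, Il4ra among them (adjusted p = 0.0165), and without the parental library of 7298 Stat5a was (0.0497).

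Estimates near 0 in the resistant comparison changed sign. Without the block they were 0.0485 for Il2rg, 0.0603 for Il7r and -0.0710 for Jak3, and with median-of-ratios scaling 0.00086 for Il2rg. With a library left out they ran from -0.0838 to 0.0636 for Il2rg, -0.217 to 0.174 for Il7r, -0.203 to 0.230 for Jak3 and -0.0695 to 0.212 for Stat5a. The cause was not tested. Of 108 ratios, 107 moved by less than their interval with median-of-ratios scaling, which shifted libraries by -0.067 to 0.080 (log2). Depth limits Il4ra and Epor most, with under 20 reads in 8 and 2 of 16 libraries.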
